A study of Mus musculus with 23 samples.

Results

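The respiratory chain is built from 2 genomes, and its subunit messages were followed here in intact and wounded mouse skin by where they are encoded. Genes were chosen by symbol alone. The mitochondrial set took symbols starting mt-Nd, mt-Co, mt-Cyb or mt-Atp and holds 12 genes. The nuclear set took the Nduf subunit families (Ndufa, Ndufb, Ndufc, Ndufs, Ndufv), Uqcr, Cox4 to Cox8, Atp5 and the 4 Sdh subunits, without pseudogene symbols and assembly factors, and holds 90 genes. Together they are 102 of the 56379 genes in the table. All 12 mitochondrial-encoded and 85 of the 90 nuclear-encoded genes had enough counts to be tested among 23083 genes. The other 5 were Cox7b2, Cox8c, Ndufa11b, Ndufb11b and Ndufs6b. The table spells the cytochrome b gene mt-Cytb, which the letters mt-Cyb do not match, so it is no member and is given beside them where the 13 mitochondrial mRNAs are treated as a whole.

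Complexes I to IV of the inner mitochondrial membrane carry electrons from NADH and succinate to oxygen and pump protons, and complex V, the ATP synthase, uses the proton gradient to make ATP. Complexes I, III, IV and V include subunits made inside the organelle from polycistronic transcripts of the circular mitochondrial genome. The remaining subunits, and all of complex II, are encoded by nuclear genes, translated in the cytosol and imported. Several cytochrome c oxidase subunits exist as a widely expressed form and a form of heart and skeletal muscle. By complex, the mitochondrial-encoded members are 7 of complex I, 3 of complex IV and 2 of complex V, and the nuclear-encoded members are 43, 4, 8, 19 and 16 of complexes I to V. Complexes were assigned by symbol, so Ndufa4 and Ndufa4l2 count with complex I although Ndufa4 is a subunit of complex IV.

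The mice were HTNFki/kiLeprdb/db, which carry a human TNF knock-in and a mutant leptin receptor, a model of obese diabetes with poor healing. All were 8 to 12 weeks old, received tramadol at 5 mg/kg, and had 4 full-thickness punch wounds of 6 mm that reached through the panniculus carnosus, the thin muscle under the skin. The control group received PBS, and the other group received adalimumab, an antibody to human TNF, subcutaneously at 20 mg/kg on a twice-weekly schedule that lists days 0, 3, 7 and 10. Total RNA was sequenced from skin at day 0 and from wounds at days 3, 7 and 10, with 3 libraries per group except 2 for adalimumab at day 10. Whether skin labelled day 0 in the adalimumab group was taken before or after a first dose is not stated in the sources used here.

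The 23 libraries held 33080930 to 37494760 counts. Days 0 and 3 of a group come from the same 3 animals by their label numbers, and days 7 and 10 come from others. Xist, the RNA of the inactive X chromosome, had 20168 to 50247 counts in all 12 libraries of days 0 and 3 and 30365 in adalimumab day 7 replicate 3, but 0 to 35 in the other 10 late libraries. The step from day 3 to day 7 therefore cannot be told apart from a change of animals and sex, and 1 of 3 adalimumab libraries at day 7 differed in sex from the rest of its day. Marker genes of skeletal muscle (16 genes) summed to 9770 to 56840 CPM (counts scaled to library totals after TMM normalization) at day 0 and to 15.5 to 15780 CPM in the wounds, and fibroblast markers (8 genes) to 1717 to 6893 against 8311 to 96190 CPM. In bulk tissue, fewer cells of a type and less RNA per cell cannot be told apart.

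Some mitochondrial-encoded genes share counts with nuclear copies of mitochondrial DNA. A sequence search found 16 predicted genes that copy a mitochondrial mRNA, 1 of them mt-Cytb, and none for mt-Nd1 or mt-Atp8. For mt-Co2, mt-Co3, mt-Nd3 and mt-Nd4l, a copy (Gm28661, Gm28437, Gm28438 and Gm10222) differed from the gene by less than counting noise, at 0.992 to 1.005 times its count. Gm10925 had 1.19 to 1.31 times the count of mt-Atp6, Gm28439 0.515 to 0.613 times that of mt-Nd4 and Gm29216 0.334 to 0.419 times that of mt-Co1. The other 9 copies had at most 0.0476 times the count of their gene. The values below are those of the mitochondrial gene as deposited.

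The mitochondrial-encoded messages made up a variable and the nuclear-encoded messages a narrow share of each library. In control skin at day 0 the 12 mitochondrial genes took 11.5%, 7.74% and 14.8% of all counts, and in control wounds 7.34%, 13.6% and 9.35% at day 3, 8.99%, 9.05% and 9.87% at day 7, and 10.9%, 6.45% and 16.3% at day 10. In the adalimumab group they took 11.2%, 8.28% and 7.21% at day 0, 6.40%, 9.52% and 8.86% at day 3, 14.0%, 11.8% and 4.14% at day 7, and 4.01% and 4.00% at day 10. The 3 lowest shares were adalimumab day 7 replicate 3 and both adalimumab day 10 libraries, and the ranges of the other groups overlapped.

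The 90 nuclear-encoded genes together took 0.987%, 0.756% and 1.02% of counts in control skin at day 0, 0.603%, 0.662% and 0.545% at day 3, 0.623%, 0.511% and 0.513% at day 7, and 0.580%, 0.522% and 0.489% at day 10. In the adalimumab group they took 0.844%, 0.731% and 0.764% at day 0, 0.707%, 0.679% and 0.676% at day 3, 0.483%, 0.532% and 0.498% at day 7, and 0.522% and 0.509% at day 10. All 6 libraries of intact skin lay above all 17 wound libraries in this sum. Gene by gene that separation held for few: 2 of 85 nuclear members, Uqcrc1 and Ndufb2, had every wound library below every day 0 library, against 3.44% of all genes tested. Uqcrc1, a core protein of complex III, ranged from 93.6 to 197 CPM at day 0 and from 39.2 to 93.2 CPM in wounds, so its margin was thin.

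**Figure D1:**
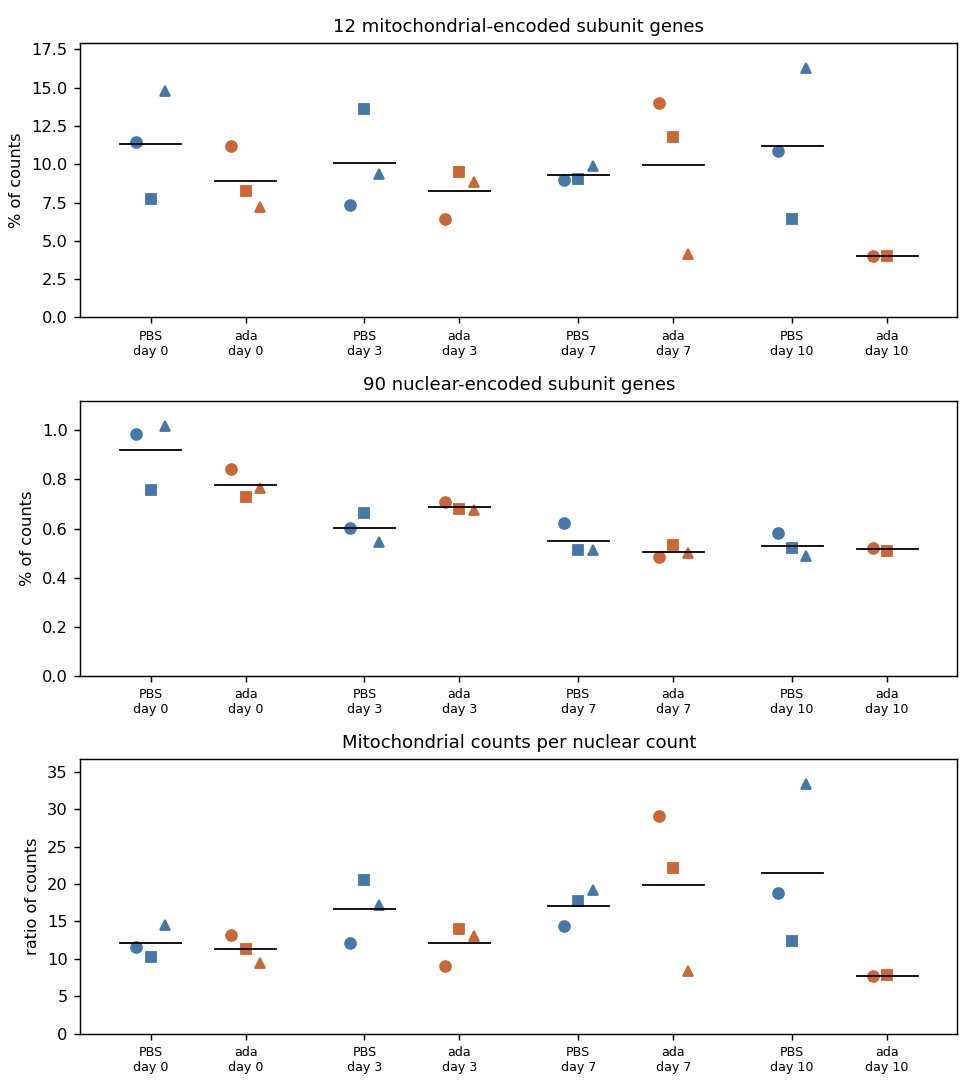
Share of all counts taken by the 12 mitochondrial-encoded genes (top, percent) and the 90 nuclear-encoded genes (middle, percent), and mitochondrial counts per nuclear count (bottom, ratio), by group (PBS control in blue, adalimumab, "ada", in orange). Each symbol is 1 library (circle, square and triangle for replicates 1, 2 and 3) and each line the group mean; the nuclear share is above 0.730% in every day 0 library and at most 0.707% in every wound.

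The spread between replicates differed between the sets. The pooled SD of log2 CPM within groups had a median of 0.60 over the 12 mitochondrial-encoded genes (range 0.56 to 0.66) and of 0.26 over the 85 nuclear-encoded genes (0.15 to 1.94), beside 0.50 over all genes tested. A group difference of a mitochondrial-encoded gene had a median SE of 0.46 in the day 3 against day 0 comparison of controls, and one of a nuclear-encoded gene 0.22. An equal log2 difference was therefore less readily detected in the mitochondrial set.

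From day 0 to day 3 in controls, most nuclear-encoded subunits fell in a fit that did not pair the animals. No mitochondrial-encoded subunit passed that test. In edgeR's quasi-likelihood test with Benjamini-Hochberg adjustment over all genes (threshold 0.05), 51 of 85 nuclear members fell and 0 rose, whereas 17.1% of all genes fell. The median log2 difference was -0.65 over the nuclear set, -0.26 over the mitochondrial set and -0.02 over all genes. In 52 of 85 nuclear members all day 3 libraries were below all day 0 libraries, against 25.4% of all genes. Of the 12 mitochondrial-encoded members, 0 were called, and 1 (mt-Nd4l) had an unadjusted p under 0.05. Fitting the same libraries with the animal as a block, which uses the pairing, called 13 nuclear members of 85 instead of 51. The share of all genes called by that fit is not given here, so the 13 cannot be set against it. Leaving out single libraries gave 32 nuclear calls without control day 0 replicate 1 or day 3 replicate 1, and 27 without control day 0 replicate 3 or day 3 replicate 3.

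By complex, 28 of 40 tested nuclear subunits of complex I fell, 3 of 4 of complex II, 6 of 8 of complex III, 5 of 17 of complex IV and 9 of 16 of complex V. The medians were -0.71, -0.69, -0.84, -0.43 and -0.52 on the log2 scale. Differences between complexes were not tested.

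In complex III, Uqcr11, a small subunit, read 41.9, 37.8 and 44.4 CPM at day 0 and 14.8, 20.2 and 14.6 CPM at day 3. The groups were far apart and the log2 difference was -1.33 ± 0.20 (SE, n = 3 and 3, edgeR adjusted p = 0.000157). Uqcrc1 fell by 1.14 on the log2 scale (edgeR adjusted p = 0.00244). In complex I, Ndufv1, the flavoprotein that takes electrons from NADH, read 90.1, 70.1 and 101 CPM at day 0 and 40.9, 47.6 and 33.6 CPM at day 3. All 3 wound libraries lay below the lowest intact one (log2 difference -1.10 ± 0.20, edgeR adjusted p = 0.000711). Ndufs7, which holds an iron-sulfur cluster, fell by 1.28 and Ndufa13 by 1.02 on the log2 scale (edgeR adjusted p = 0.00109 and 0.00162).

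In complex II, succinate dehydrogenase, 3 of 4 subunits fell. Sdhb, its iron-sulfur subunit, read 106, 81.0 and 139 CPM at day 0 and 54.1, 56.3 and 57.1 CPM at day 3, without overlap (log2 difference -0.96 ± 0.20, edgeR adjusted p = 0.00163). Sdhd, a membrane anchor, read 90.3, 67.4 and 108 CPM at day 0 and 100.1, 81.4 and 88.5 CPM at day 3, and these ranges overlapped (log2 difference 0.03, edgeR adjusted p = 0.936). Sdha, the flavoprotein, and Sdhc, the other anchor, differed by -0.80 and -0.58 on the log2 scale. Their edgeR adjusted p of 0.0136 and 0.0125 became 0.0568 and 0.0945 with the animal as a block, whereas Sdhb kept its call.

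In complex V, Atp5b, the catalytic beta subunit, read 1024, 858.5 and 1193 CPM at day 0 and 709.5, 634.9 and 447 CPM at day 3 (log2 difference -0.78, edgeR adjusted p = 0.0437, and 0.103 with the animal as a block). Its call was also lost without each of 5 single libraries, all but control day 0 replicate 2 (edgeR adjusted p = 0.0545 to 0.173), and without a count filter. Atp5d, the delta subunit, and Atp5g1, a proton-carrying c subunit, fell by 0.91 and 0.90 on the log2 scale (edgeR adjusted p = 0.00226 and 0.00893), and with the animal as a block the p was 0.0537 and 0.0988. Cox4i1, the common form of a regulatory subunit of complex IV, read 210, 167 and 206 CPM at day 0 and 120, 126 and 112 CPM at day 3. The groups did not overlap (log2 difference -0.71 ± 0.16, edgeR adjusted p = 0.0029, and 0.0635 with the animal as a block).

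The muscle isoforms showed the largest differences of complex IV. Cox6a2, Cox7a1 and Cox8b are the forms of striated muscle, and Cox6a1, Cox7a2 and Cox8a their widely expressed partners. Cox7a1 read 28.5, 14.6 and 44.6 CPM in control skin at day 0 and 1.26, 2.53 and 1.73 CPM at day 3 (log2 difference -3.99 ± 0.65, edgeR adjusted p = 0.000247). Its partner Cox7a2 read 90.5, 78.9 and 94.6 CPM and then 72.8, 78.5 and 59.4 CPM, which did not pass (log2 difference -0.32, edgeR adjusted p = 0.0841). Cox6a2 and Cox8b differed by -4.86 ± 1.45 and -5.00 ± 1.58 (edgeR adjusted p = 0.0155 and 0.0208). Both calls were lost without control day 3 replicate 1 (adjusted p = 0.0703 and 0.0836 in edgeR) or day 3 replicate 3 (0.0646 and 0.0795), and that of Cox8b without day 0 replicate 3 (0.0527). The widely expressed Cox6a1 and Cox8a were at -0.03 and -0.23 (edgeR adjusted p = 0.928 and 0.308).

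The count of Cox6a2 per 100 counts of Cox6a1 was 167, 99.8 and 370 in control skin at day 0 and 2.87, 13.3 and 3.84 at day 3. In the adalimumab group it was 170, 58.1 and 62.4 at day 0 and 31.2, 46.0 and 13.3 at day 3, so the day 3 values of the arms met at 13.3. At day 7 it was 101 in control replicate 1 and 0.175 to 5.02 in the other 5 libraries. Cox8b had 0 counts in control day 7 replicate 2 and adalimumab day 7 replicates 1 and 2, where 3 counts would be 0.0898, 0.0903 and 0.0901 CPM. Control day 7 replicate 1 also had 15780 CPM of skeletal muscle markers, against 15.5 to 1314 in the other day 7 libraries.

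**Figure D2:**
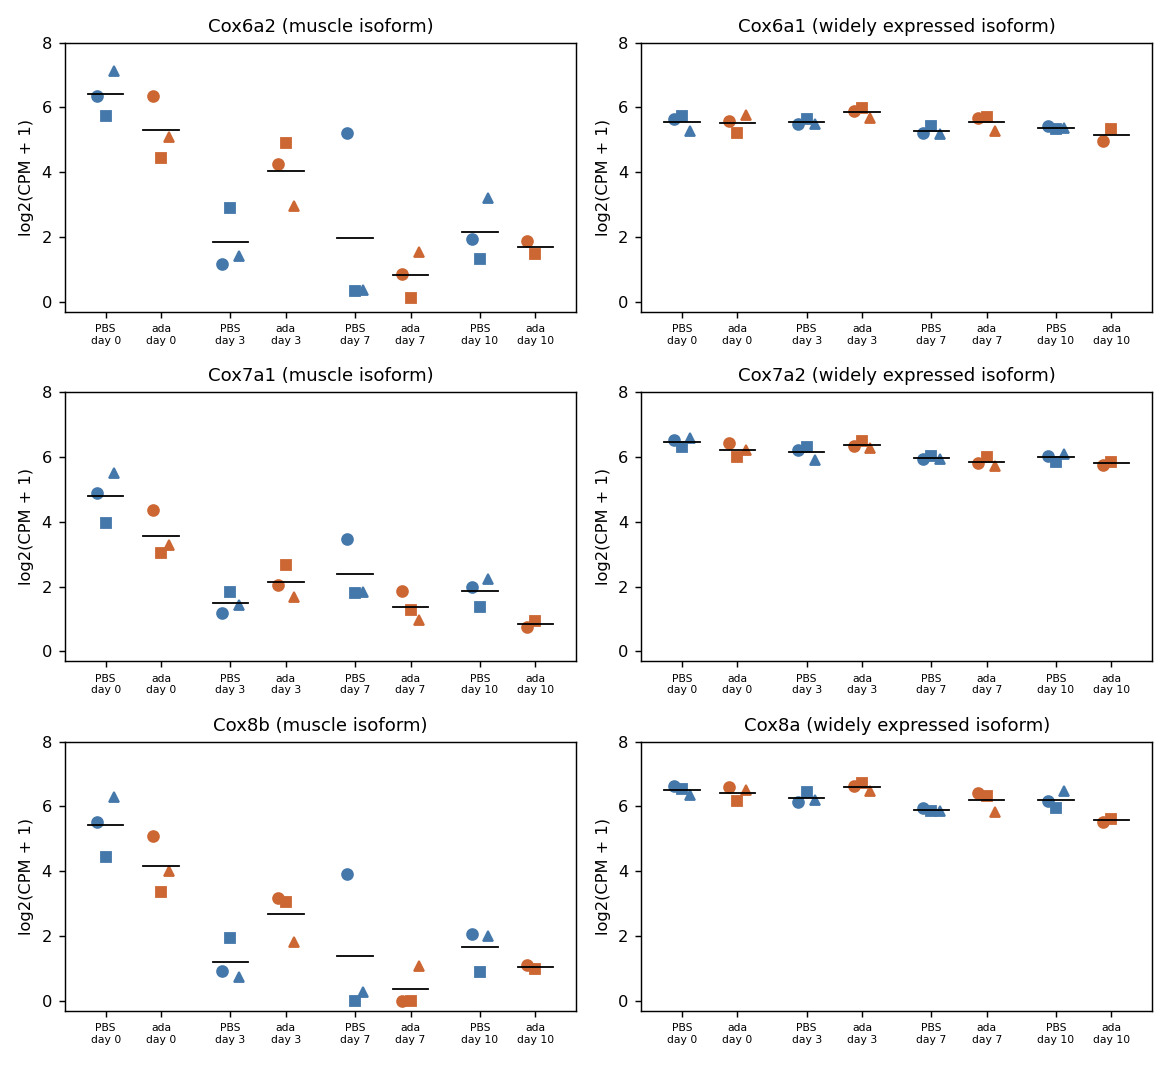
Muscle isoforms (left) and widely expressed isoforms (right) of 3 cytochrome c oxidase subunits, as log2(CPM + 1), by group. Each symbol is 1 library (circle, square and triangle for replicates 1, 2 and 3; PBS control blue, adalimumab, "ada", orange) and each line the group mean; Cox6a2 spans 0.0901 to 140 CPM and Cox6a1 30.5 to 62.8 CPM.

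Without those 3 muscle genes, 48 of 82 nuclear members fell in controls, with a median log2 difference of -0.62. Markers of muscle and of other cell types were counted in the same comparison. In controls 15 of 16 skeletal muscle markers and 8 of 10 adipocyte markers fell, and 10 of 10 macrophage and 8 of 8 fibroblast markers rose. The summed muscle level was 37830, 19350 and 56840 CPM at day 0 and 843, 1885 and 433 CPM at day 3. The median log2 differences of the nuclear members in the same 3 animals were -0.68, -0.12 and -0.98. The part of muscle in the fall of the widely expressed subunits was not tested.

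Promoters are printed for 3 members that fell, chosen to show an ETS motif, an NRF1 motif and neither: Uqcr11, Sdha and the muscle form Cox7a1. They are the 250 bases before the transcription start in RefSeq on GRCm38.p6, a different build from the one the reads were mapped to, at chr10:80406822-80407071 (minus strand), chr13:74350241-74350490 (minus strand) and chr7:30183921-30184170 (plus strand). Capitals mark the motif of NRF1 (GCGC, any base, then TGCGC) and that of ETS-family factors such as GABPA, CCGGAAG, on either strand; both are known regulators of respiratory genes.
Uqcr11: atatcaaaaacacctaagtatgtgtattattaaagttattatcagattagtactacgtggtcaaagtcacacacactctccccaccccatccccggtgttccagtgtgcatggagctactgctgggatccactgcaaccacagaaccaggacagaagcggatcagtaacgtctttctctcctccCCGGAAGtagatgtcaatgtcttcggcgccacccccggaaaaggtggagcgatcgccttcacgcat
Sdha: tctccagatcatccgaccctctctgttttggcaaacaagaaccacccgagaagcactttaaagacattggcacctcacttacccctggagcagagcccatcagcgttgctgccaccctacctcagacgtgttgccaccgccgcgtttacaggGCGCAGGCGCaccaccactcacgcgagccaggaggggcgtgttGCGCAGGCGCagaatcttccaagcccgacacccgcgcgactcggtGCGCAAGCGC
Cox7a1: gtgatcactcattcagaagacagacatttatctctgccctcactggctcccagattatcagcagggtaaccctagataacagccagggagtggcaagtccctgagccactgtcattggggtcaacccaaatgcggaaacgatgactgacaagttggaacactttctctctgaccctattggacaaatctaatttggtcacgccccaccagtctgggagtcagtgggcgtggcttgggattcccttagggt
The Uqcr11 window held 1 ETS motif, the Sdha window 3 NRF1 motifs and the Cox7a1 window neither. Of the 90 nuclear members, 69 matched a promoter entry. The NRF1 motif was found in 18.8% of these against 4.2% of all 27025 genes with a promoter, the ETS motif in 17.4% against 7.8%, and a YY1 motif, AAGATGG, in 1.4% against 5.2%. These shares describe letters in a window and not binding.

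Genes of the same metabolic route were counted in the same comparison. Of 17 genes of the tricarboxylic acid cycle and pyruvate entry, 12 fell and 0 rose in controls from day 0 to day 3 (median log2 difference -0.97), with Ogdh, of the oxoglutarate dehydrogenase complex, at -1.52. Of 10 genes of the mobile carriers cytochrome c and coenzyme Q and their partners 6 fell (median -0.60), with Coq9, a coenzyme Q biosynthesis protein, at -1.97 and Cyc1, the cytochrome c1 of complex III, at -0.92. Of the assembly factors of the chain, 7 of 44 fell and 2 rose (median -0.22), against 17.1% and 17.5% of all genes. Of 77 mitochondrial ribosomal protein genes 2 fell and 6 rose, with a median of 0.01. The difference between these lists was not tested.

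Few genes of mitochondrial transcription, RNA processing and genome maintenance were called in controls, 1 lower and 1 higher of 23, against 17.1% and 17.5% of all genes. Twnk, the mitochondrial DNA helicase, fell by 0.87 (edgeR adjusted p = 0.0177) and Pnpt1, an RNA-degrading enzyme of the organelle, rose by 1.14 (edgeR adjusted p = 0.000393), and the other 21 did not pass. Of 12 regulators of biogenesis 3 fell and 3 rose. Ppargc1a, a coactivator of respiratory genes, fell by 4.94 ± 1.02 (SE) and Prkaa2, a catalytic subunit of AMP-activated kinase, by 3.86 on the log2 scale. Nfe2l2 and Nrf1, both transcription factors, rose by 0.84 and 0.51.

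In the adalimumab group few nuclear-encoded subunits changed from day 0 to day 3. In edgeR 2 of 85 fell, Cox6b2 and Cox7a1, and 0 rose, against 9.54% and 11.9% of all genes. The median log2 difference was -0.03 over the nuclear set and -0.09 over the mitochondrial set, where 0 of 12 were called and 0 had an unadjusted p under 0.05. Cox6b2, the testis form of a complex IV subunit, was scarce: 1.64, 4.00 and 3.64 CPM at day 0 and 0.676, 0.918 and 1.33 CPM at day 3 (log2 difference -1.66 ± 0.37, edgeR adjusted p = 0.00407). Cox7a1 differed by -1.73 ± 0.59 (edgeR adjusted p = 0.0445). With the animal as a block neither passed (edgeR adjusted p = 0.0576 and 0.121). Without adalimumab day 0 replicate 3, day 3 replicate 1 or day 3 replicate 3, 1 of the 2 calls was left.

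Cox4i1 read 185, 117 and 132 CPM in adalimumab skin at day 0 and 155, 150 and 127 CPM at day 3, and these ranges overlapped. Uqcr11 read 41.1, 25.0 and 34.4 CPM and then 28.1, 26.4 and 22.2 CPM, with a log2 difference of -0.39. The day 3 values of Uqcr11 in adalimumab wounds were all above the 14.6 to 20.2 CPM of control wounds. EdgeR called 0 of 17 tricarboxylic acid cycle genes and 0 of 16 skeletal muscle markers in this arm. The summed muscle level was 25300, 9770 and 10830 CPM at day 0 and 6687, 8414 and 2393 CPM at day 3. Of the genes of mitochondrial transcription, RNA processing and genome maintenance, 3 of 23 fell, against 9.54% of all genes. Among them were Twnk, by 1.31, and Polrmt, the mitochondrial RNA polymerase, by 0.66 on the log2 scale (edgeR adjusted p = 0.00252 and 0.00718).

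The difference between the arms in this early change was tested as an interaction. The estimate was higher with adalimumab for 84 of 85 nuclear and 12 of 12 mitochondrial members, with medians of 0.57 and 0.22 beside 0.02 over all genes. No member passed: edgeR called 0 of 97, against 0.234% of all genes higher and 1.57% lower, and the smallest adjusted p was 0.0887 for Uqcr11 (log2 0.94). DESeq2 called 5 nuclear members. Without adalimumab day 0 replicate 1 edgeR called 8, without adalimumab day 3 replicate 3 it called 2, and without control day 3 replicate 2 it called 1. The shares of all genes called in these other fits are not given here.

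Both ends of the interval entered that estimate. At day 0, 83 of 85 nuclear and 12 of 12 mitochondrial members were lower with adalimumab (medians -0.43 and -0.57). At day 3, 71 of 85 nuclear members were higher and 12 of 12 mitochondrial members lower (medians 0.19 and -0.35). EdgeR called 0 members at either day, with 33 nuclear members at an unadjusted p under 0.05 at day 0 and 5 at day 3. Over all genes it called 0.264% higher and 0.00433% lower at day 0, and 0 at day 3. Without adalimumab day 0 replicate 1 it called 6 nuclear members at day 0. The counts of all genes by sign and at an unadjusted p under 0.05 are not given here. Those of the members therefore cannot be read as particular to them. At day 0 the summed muscle markers had a mean of 38010 CPM in controls and 15300 CPM with adalimumab, and adipocyte markers of 10680 and 5326 CPM. Hair follicle markers (15 genes) were at 19.5 to 38.1 CPM in controls and at 37.4, 2866 and 18630 CPM with adalimumab, and 5 of the 15 were called higher. At day 3 the means in control and adalimumab wounds were 1054 and 5831 CPM for muscle, 764 and 4416 CPM for adipocytes, 1684 and 7404 CPM for erythrocytes, and 155 and 1000 CPM for neutrophils, with 0 genes of these lists called. The part of these markers in the subunit differences was not tested. These comparisons share their libraries with the interaction and with the time courses, so their values are not separate evidence.

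Within animals the early change was uneven. In control animals 1, 2 and 3, the median log2 difference of the nuclear members from day 0 to day 3 was -0.68, -0.12 and -0.98, and that of the mitochondrial members -0.62, 0.75 and -0.86. In adalimumab animals 1, 2 and 3 the nuclear medians were -0.33, 0.32 and -0.07 and the mitochondrial medians -0.83, 0.34 and 0.22. Nuclear members were lower at day 3 in 82, 59 and 84 of 85 in the control animals, and in 78, 15 and 53 of 85 in the adalimumab animals. The 2 sets had opposite signs in control animal 2 and in adalimumab animal 3.

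From day 3 to day 7 in the adalimumab group, 7 of 85 nuclear members fell in edgeR and 0 rose, against 3.11% and 3.37% of all genes, with a median log2 difference of -0.33. The mitochondrial median was 0.41 with 0 of 12 called and 0 at an unadjusted p under 0.05. Among them were Ndufv1 and Ndufb6 of complex I, Uqcr11 of complex III, Cox5a and Cox7a2 of complex IV and Atp5b of complex V. Atp5b read 837.5, 600.1 and 569 CPM at day 3 and 203, 279 and 459 CPM at day 7, without overlap (log2 difference -1.09, edgeR adjusted p = 0.0341). Cox5a differed by -1.06 (edgeR adjusted p = 0.0281). None of the 7 was called without adalimumab day 3 replicate 1, day 7 replicate 1 or day 7 replicate 2, and 1 was called without day 3 replicate 2. With the replicate number as a block 0 were called. In this step 7 of 17 tricarboxylic acid cycle genes fell, among them Mdh2, the malate dehydrogenase (-1.13), and 3 of 10 carrier genes, among them Cycs, cytochrome c (-1.07). Adipocyte markers also fell (6 of 10) and fibroblast markers rose (6 of 8), and their part in the result was not tested.

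In controls from day 3 to day 7, 1 of 85 nuclear members was called, Ndufa4l2, which rose, against 1.77% of all genes higher and 1.28% lower. Ndufa4l2 is a paralogue of the complex IV subunit Ndufa4 and a known target of the hypoxia response. It read 26.4, 28.1 and 31.4 CPM at day 0, 3.66, 16.0 and 4.40 CPM at day 3, 22.6, 100.8 and 61.4 CPM at day 7 and 12.3, 27.0 and 29.5 CPM at day 10. Its log2 difference from day 0 to day 3 was -1.83 ± 0.69 (edgeR adjusted p = 0.0477, and 0.0934 with the animal as a block). The day 3 to day 7 log2 difference was 2.94 ± 0.72 (edgeR adjusted p = 0.0353, and 0.0759 with the replicate number as a block), and the call was lost without control day 3 replicate 1, day 3 replicate 3, day 7 replicate 2 or day 7 replicate 3. In the adalimumab group it read 32.7, 22.0 and 15.6 CPM at day 0, 4.92, 47.1 and 29.3 CPM at day 3, 80.9, 52.4 and 39.6 CPM at day 7 and 46.7 and 87.1 CPM at day 10. At day 3 the adalimumab range held part of the control range.

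Between the arms at day 7, edgeR called 0 of 97 members and 0 of all genes. The medians were -0.09 over the nuclear and 0.13 over the mitochondrial set, and 4 nuclear members had an unadjusted p under 0.05. The count of all genes at that p is not given here, so the 4 cannot be read as particular to the members.

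At day 10 the mitochondrial-encoded members were low in both adalimumab libraries. All 12 had both adalimumab libraries below all 3 control libraries, beside 23.8% of all genes, and the median log2 difference was -1.73. The 12 come from the same libraries and from shared polycistronic transcripts, so they are not 12 separate observations. Of the nuclear members 52 of 85 lay below without overlap, with a median of -0.33, so the mitochondrial median was lower by 1.40. Another 8 of the 85 lay above without overlap. The share of all genes above is not given here, so those 8 cannot be read as particular to the members. EdgeR called 0 of 97 members and 0 of all genes at this day. All 12 mitochondrial and 21 nuclear members had an unadjusted p under 0.05, as had 3245 of 23083 genes. DESeq2 called 7 of 12 mitochondrial members. With the replicate number as a block, edgeR called 3 mitochondrial and 2 nuclear members and the gap between the medians was -0.90. Equal replicate numbers at this day belong to different mice, so that block is no pairing by design. The shares of all genes called by DESeq2 and by the block fit are not given here. Their calls therefore cannot be read as particular to the members.

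Mt-Co1, the catalytic subunit of complex IV, read 35190, 20840 and 61210 CPM in control wounds at day 10 and 12470 and 13800 CPM with adalimumab (log2 difference -1.57, edgeR adjusted p = 0.245). Control replicate 3 was high and control replicate 2 was nearest to the adalimumab libraries. Mt-Atp8, a small ATP synthase subunit, read 2847, 1474 and 5524 CPM against 631 and 795 CPM (log2 difference -2.20 ± 0.59, edgeR adjusted p = 0.198, and 0.0345 with the replicate number as a block). Mt-Nd3, a core subunit of complex I, read 2545, 1124 and 3509 CPM against 627 and 575 CPM (log2 difference -1.99, edgeR adjusted p = 0.199, and 0.024 with the block). The block joins different mice with the same number, whose deviations from group means correlated at -0.02 and -0.04. Its p values are therefore not those of a paired test. Without control day 10 replicate 3 the gap between the set medians was -0.94, and edgeR called no member (0 also without each of the other day 10 libraries). Atp5d was among the nuclear members that lay above without overlap, higher by 0.65 with adalimumab (edgeR adjusted p = 0.24, and 0.0428 with the block). Ndufa4l2, Atp5b and Uqcrc1 also lay above, by 1.55, 0.43 and 0.36 on the log2 scale, without passing. Cox8a and Ndufs4 were lower by 0.66 and 0.69 without passing (edgeR adjusted p = 0.202 and 0.231).

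The 3 libraries with the lowest mitochondrial shares had the highest epidermal marker sums, but the next lowest did not follow. Summed CPM of 11 epidermal differentiation genes was 11150 in adalimumab day 7 replicate 3 and 15050 and 21180 in the adalimumab day 10 libraries. In the other 20 libraries it was 51.5 to 7624. Adalimumab day 3 replicate 1, with the next lowest share (6.40%), had the lowest sum of all, 51.5 CPM, and control day 10 replicate 2 (6.45%) had 1092 CPM. The part of tissue makeup in the low mitochondrial share was not tested. From day 7 to day 10 the mitochondrial median was -1.52 with adalimumab and 0.39 in controls, with an interaction of -1.91, and edgeR called 0 members and 0 of all genes in each of the 3. The control gap between the set medians in this step changed from 0.40 to -0.16 without control day 10 replicate 3, and that of the interaction from -1.68 to -1.18.

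**Figure D3:**
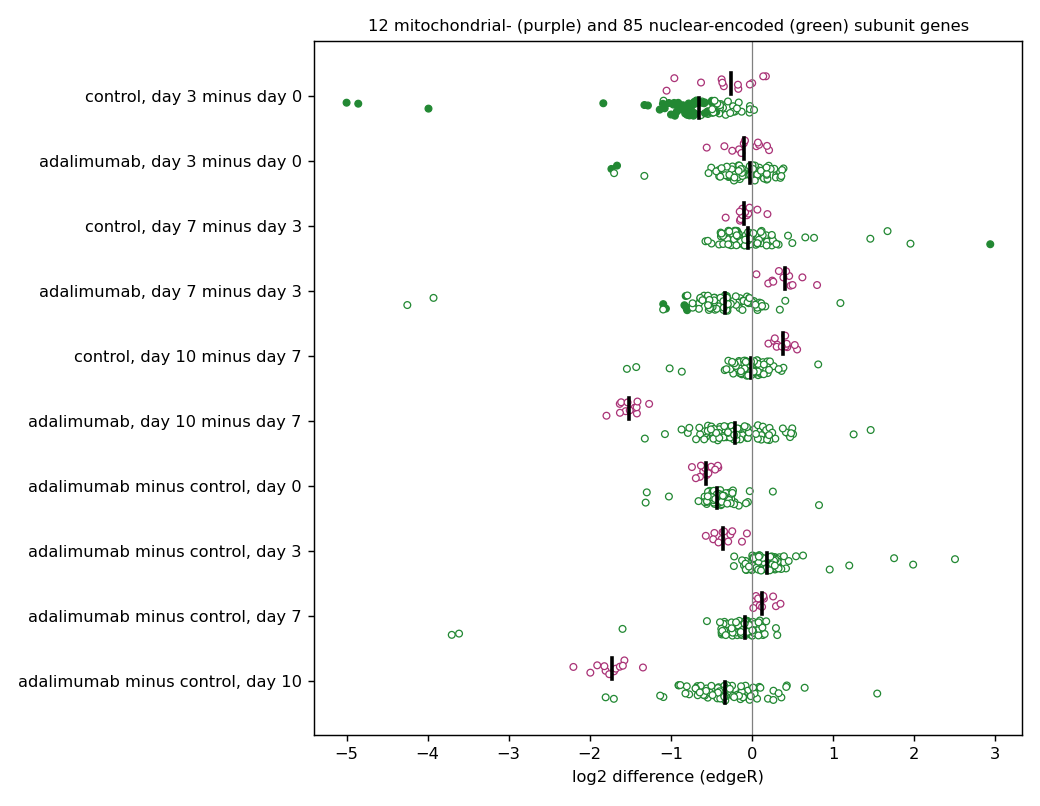
Log2 differences (edgeR) of the 12 mitochondrial-encoded (purple) and 85 nuclear-encoded (green) genes in 10 comparisons; each point is 1 gene, filled where its adjusted p is under 0.05, and each black bar is the set median. The nuclear median is -0.65 in control wounds at day 3, and the mitochondrial median is -1.73 for adalimumab against control at day 10.

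Within the mitochondrial genome the messages did not keep a fixed proportion between intact skin and wounds. Each gene was taken as a percentage of the counts of the 13 mitochondrial mRNAs, mt-Cytb included, which does not depend on scaling between libraries. These comparisons over the 6 libraries of day 0 and 17 of wounds were made after the values were seen, and carry no test. Mt-Nd4l, a small membrane subunit of complex I, took 0.755% to 0.930% at day 0 and 0.313% to 0.622% in wounds, without overlap. Its neighbour mt-Nd4, carried on the same message, took 8.88% to 9.76% at day 0 and 6.37% to 8.93% in wounds. Mt-Nd2, also a complex I subunit, took 4.53% to 5.88% at day 0 and 2.78% to 5.15% in wounds. Mt-Co2, the copper-binding subunit of complex IV, went the other way, with 9.39% to 11.8% at day 0 and 11.3% to 15.3% in wounds.

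For mt-Nd2, mt-Nd4 and mt-Co2, 1 of 17 wound libraries lay in the day 0 range. That library was adalimumab day 3 replicate 1 each time, with a mt-Co2 to mt-Nd2 count ratio of 2.20, where day 0 libraries had 1.72 to 2.57 and the other 16 wound libraries 2.98 to 5.33. It also had the lowest epidermal differentiation sum (51.5 CPM) and 9843 CPM of adipocyte markers, against 3418 to 12340 CPM at day 0 and 49.9 to 2129 CPM in the other wounds. The median wound percentage was 1.05 times that of day 0 for mt-Co1, against 0.66 for mt-Nd2, 0.66 for mt-Nd4l, 0.79 for mt-Nd4, 1.22 for mt-Co2 and 1.46 for mt-Atp8. Mt-Nd1 took 6.35% to 6.67% at day 0, and 7.66%, 7.58% and 7.38% in control wounds and 7.49%, 6.199% and 7.16% in adalimumab wounds at day 3, so that 5 of 6 day 3 libraries were above every day 0 library. In edgeR's test of controls at day 3 against day 0, mt-Nd4l and mt-Nd2 had the most negative log2 differences of the set, -1.05 ± 0.46 and -0.96 ± 0.49 (adjusted p = 0.0832 and 0.143), and mt-Co2 differed by 0.14.

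**Figure D4:**
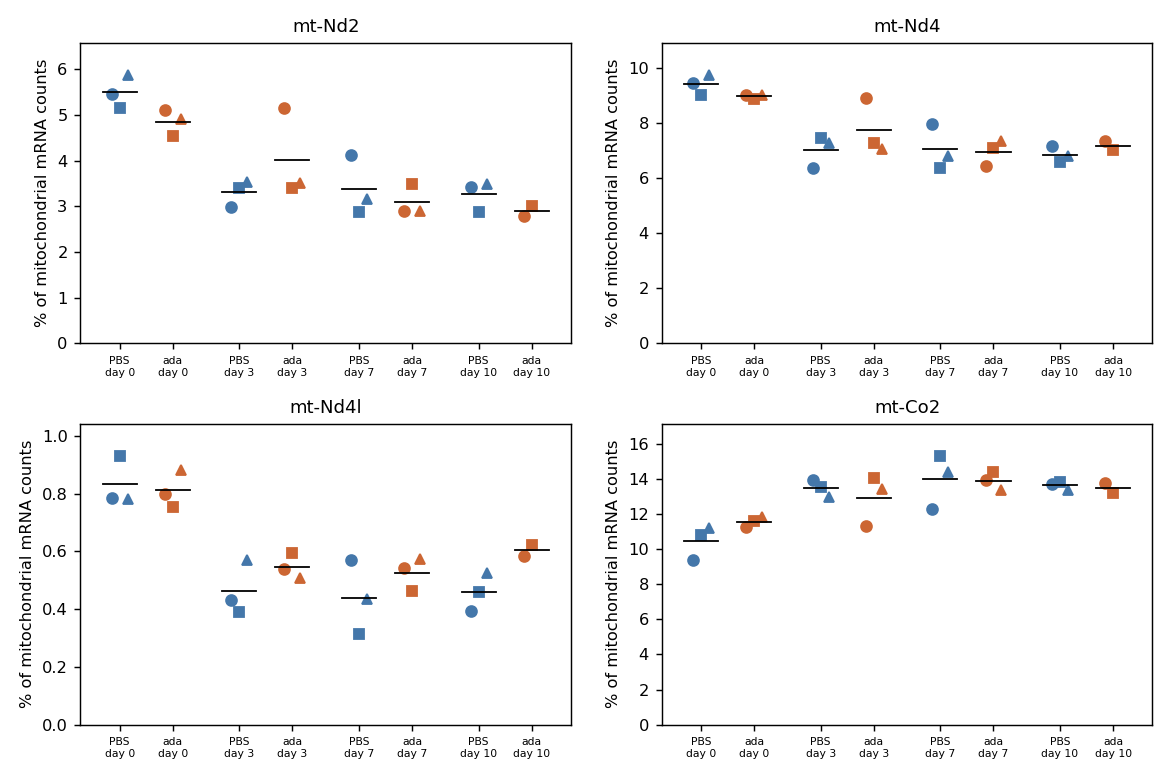
Percentage of the counts of 13 mitochondrial mRNAs taken by mt-Nd2, mt-Nd4, mt-Nd4l and mt-Co2, by group. Each symbol is 1 library (circle, square and triangle for replicates 1, 2 and 3; PBS control blue, adalimumab, "ada", orange) and each line the group mean; mt-Nd4l has no wound library above 0.622% and no day 0 library below 0.755%.

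Levels of the mitochondrial messages were also compared per base of transcript. After division by length, mt-Co1 held a median of 18.1%, mt-Co2 17.5% and mt-Atp6 15.4% of the mitochondrial mRNA level over the 23 libraries, and mt-Co3 10.3%. Mt-Atp8 held 7.496% (5.43% to 11.4%), and its range overlapped that of mt-Nd1 (5.57% to 7.31%). The complex I subunits ranged from 6.24% for mt-Nd1 down to 1.71% for mt-Nd4l. The ranges over libraries of mt-Co1 (16.3% to 20.2%) and mt-Co2 (12.9% to 20.0%) overlapped, as did those of mt-Nd5 (1.67% to 2.33%) and mt-Nd6 (1.75% to 2.61%). Reads shared with nuclear copies and with overlapping neighbours (mt-Atp8 with mt-Atp6, mt-Nd4l with mt-Nd4) enter these levels, and their part was not tested.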

How the data were processed

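Total RNA of 23 mouse skin and wound libraries was sequenced as single reads of 50 bases from stranded libraries (SMARTer V2-Pico), per the labels' protocols. The submitters' processing notes name STAR, with no version, and GRCm39. How reads were assigned to genes (tool, gene models, strand) was not given in the sources at hand, so reads of a gene and of an overlapping or antisense gene cannot be told apart. The authors deposited raw counts of reads per gene, with totals that differ between libraries. Names like Cox7c-ps1 were read as pseudogene symbols, and 14 were dropped.

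Tests used edgeR 4.0.16 in R 4.3.3: filterByExpr by group (minimum count 10, minimum total 15), TMM factors of 0.861 to 1.184, 1 mean per group over all 23 libraries in 8 groups, glmQLFit and glmQLFTest, Benjamini-Hochberg adjustment over 23083 genes and a threshold of 0.05 in 12 comparisons. The common dispersion was 0.181. CPM values are deposited counts over TMM-scaled library totals; log2 CPM used a prior count of 2. Nuclear copies were predicted genes matching a mitochondrial mRNA by BLAST+ 2.17.0 (at least 90% identity over 100 bases, GENCODE transcripts). Promoter sequences were RefSeq's. The scripts were tested on simulated data. Alternatives were DESeq2 1.42.0, RLE factors, other count filters, a fit of the compared groups alone, scaling without mitochondrial genes, mitochondrial genes summed with their copies, replicate blocks, and leaving out each library.

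The members and lists were chosen with earlier results of these data known. The named genes are the mitochondrial-encoded members, the Sdh subunits, tissue isoforms, in each comparison up to 5 nuclear members of smallest p per direction, and up to 3 genes per pathway list. Atp5b, Ndufb2 and Uqcrc1, and Atp5d in the early control comparison, lie outside this rule and were chosen after their values were seen. Replicates are separate mice by their label numbers. Days 0 and 3 of a group share animal numbers and so are paired by design. Correlations of their deviations from group means were -0.08, -0.04 and -0.07 in controls and 0.26, -0.11 and 0.26 with adalimumab. No 2 libraries of a group were identical. Some genes are not reported here by name.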

Additional observations from a re-analysis of the deposited data

How the results depend on the processing

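A gap between set medians was held to be kept where it moved by less than 0.469. That value is the pooled SD within groups of the per-library difference between set means of log2 CPM. It is not an SD of the gap itself. It exceeds gaps such as 0.389 for controls at day 3 against day 0, so a small gap could change sign and still count as kept. A count of calls was held to be kept where it stayed within 1.5 times, and a single gene where sign and call stayed, whatever its size. By these limits 222 of 243 set values were kept without 1 library and 268 of 288 under other settings, and 280 of 359 and 388 of 456 for single genes. DESeq2 called 1 nuclear member for adalimumab against control at day 0, 7 mitochondrial members at day 10, 14 nuclear members for adalimumab day 7 against day 3 (7 in the reported fit) and 5 in the early interaction. Without a low-count filter, nuclear calls were 1 for adalimumab day 3 against day 0 (2 in the reported fit) and 2 for its day 7 against day 3. Scaling without mitochondrial genes left 1 nuclear call for adalimumab day 3 against day 0. Fits of the compared groups alone called 1 mitochondrial and 1 nuclear member at day 10, 1 mitochondrial member for controls at day 3 against day 0, 0 nuclear members for day 7 against day 3 in either group, and 1 for adalimumab day 3 against day 0.

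The animal block, which pairs days 0 and 3, left 13 nuclear calls in controls (51 in the reported fit) and 0 with adalimumab. Other replicate numbers are shared by different mice; that block gave a gap of -0.90 (-1.40 in the reported fit), 3 mitochondrial and 2 nuclear calls at day 10, and 0 nuclear calls for day 7 against day 3 in either group. Same-numbered deviations of those pairs correlated at -0.35 to 0.21. Shares of all genes called under the other settings above are not given here.

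Leaving out 1 library gave 27 to 59 nuclear calls for controls at day 3 against day 0, 0 to 1 for controls at day 7 against day 3, 1 to 2 for adalimumab day 3 against day 0, 0 to 10 for its day 7 against day 3, 0 to 8 in the early interaction and 0 to 6 for the groups at day 0. The gap between set medians ran from -0.16 to 0.62 for controls at day 10 against day 7 and from -1.93 to -1.18 in the late interaction. Small gaps crossed 0 within the limit: -0.03 to 0.48 between the groups at day 7, -0.24 to 0.02 at day 0, -0.22 to 0.19 for controls at day 7 against day 3 and -0.14 to 0.08 for adalimumab day 3 against day 0.

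Values near 0 changed sign. For controls at day 3 against day 0, Sdhd (0.03) was -0.022 with DESeq2 and RLE factors and -0.10 to 0.19 without 1 library. Cox6a1 (-0.03) was 0 when scaled without mitochondrial genes, 0.011 in the compared groups alone, 0.020 with the animal block and -0.15 to 0.11 without 1 library. Without 1 library, mt-Co1 was -0.39 to 0.12 and mt-Co2 -0.13 to 0.55. For adalimumab day 3 against day 0, Cox4i1 (-0.01) was 0.029 with DESeq2 and RLE factors, 0.037 without a filter, 0.044 with a minimum of 10 counts per library of a group, 0.041 when scaled without mitochondrial genes, 0.019 in the compared groups alone, 0.039 with the block and -0.13 to 0.21 without 1 library. The cause was not tested for any of these. With 2 or 3 libraries per group, the spread of the mitochondrial genes limits which differences can be called. At this depth every mitochondrial-encoded member was far above the count filter.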
